A study of Rattus norvegicus with 6 samples.

Results

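The heat shock proteins and their DnaJ co-chaperones were described in the kidney inner medulla of rats, the innermost kidney zone, where the collecting ducts end. The members were all genes whose symbol belongs to the Hspa, Hspb, Hspd, Hspe or Hsph series or to the Dnaja, Dnajb or Dnajc series, together with the transcription factors Hsf1 and Hsf2 and the Hsp90 partner Chordc1. They came to 64 of 14168 genes measured by a probe set with a symbol of its own. The rule picks genes by symbol and not by level, but it was set with earlier results of these data known. The inducible Hsp70 genes Hspa1a and Hspa1b and the gene Hspa1l were not analysed here, since no probe set used carried any of these symbols alone.

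Total RNA from male Sprague-Dawley rats of 200 to 250 g was measured on 6 whole-transcript gene arrays, 2 in each of 3 groups. All rats carried an osmotic minipump under the skin for 5 d, ate a fixed ration in metabolic cages and drank freely. In the vehicle group the pump delivered saline at 1 µl/h, and the dDAVP group was infused at 40 ng/h with desmopressin (dDAVP), a selective V2 vasopressin receptor agonist. The withdrawal group received the same dDAVP infusion, after which the pump was taken out under light enflurane anaesthesia and tissue was taken 3 h later. Only that group had this operation just before sampling, so the loss of dDAVP and the procedure cannot be told apart. Whether the arrays of a group come from separate animals is not stated, so p-values measure only the spread among the arrays, which may be technical. With 2 arrays in a group, their number limits the precision.

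Hsp70 proteins bind unfolded segments of other proteins and release them in a cycle driven by ATP. J-proteins, the DnaJ family, bring substrates to Hsp70 and start its ATP hydrolysis, while Hsp110 proteins and other exchange factors let ADP go. Small heat shock proteins hold unfolding proteins without ATP, the Hspd1 and Hspe1 chaperonin folds proteins in mitochondria, and Hsf1 turns on many of these genes under protein stress. Inner medullary cells live in fluid with high salt and urea, and heat shock proteins are known there as part of the protection against that environment.

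Sequences before the transcription start are shown for the members on which the results turn or whose promoters hold a known stress motif. RefSeq promoters of assembly GRCr8, 250 bases before to 50 after the start, were found for 52 of the 64 members. The heat shock element, searched on both strands as TTC, 2 free bases, GAA, 2 free bases and TTC, lay in 6 of these 52 (11.5%) and in 0.798% of all 33469 promoters of the same length. The 6 were Chordc1, Dnaja1, Hspa8, Hspd1, Hspe1 and Hsph1. Hspd1 and Hspe1 start 290 bases apart on opposite strands, and their windows hold the same 2 overlapping matches. The ER stress response element, searched on both strands as CCAAT, 9 free bases and CCACG, lay in Hspa5 and Dnajc3 (3.85% of members against 0.0657% of all promoters). The cAMP response element, TGACGTCA, which reads alike on both strands, lay in Dnajc27 and Dnajc30 (3.85% against 1.83%). None of these letters lay in the windows of Dnaja3 or Hspbap1, which says nothing of the factors that bind there. Each sequence below ends at the base before the start, 5′ to 3′ on the gene's strand, with the motif in capitals where there is one.
Dnaja3 (chr10:11386600-11386749, minus strand): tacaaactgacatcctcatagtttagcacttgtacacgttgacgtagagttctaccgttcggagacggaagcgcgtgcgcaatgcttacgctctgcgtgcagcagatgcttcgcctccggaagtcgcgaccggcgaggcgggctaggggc
Hspbap1 (chr11:78500035-78500184, minus strand): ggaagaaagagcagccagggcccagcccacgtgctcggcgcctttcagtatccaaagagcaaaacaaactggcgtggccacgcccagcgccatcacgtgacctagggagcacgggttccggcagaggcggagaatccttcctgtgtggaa
Hspe1 (chr9:64084217-64084326, plus strand): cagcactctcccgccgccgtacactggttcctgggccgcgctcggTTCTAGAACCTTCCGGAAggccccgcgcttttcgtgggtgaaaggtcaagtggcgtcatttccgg
Hsph1 (chr12:10427258-10427367, plus strand): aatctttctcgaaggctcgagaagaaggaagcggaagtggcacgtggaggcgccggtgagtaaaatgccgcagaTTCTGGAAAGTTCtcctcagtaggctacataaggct
Hspa5 (chr3:38452906-38453015, plus strand): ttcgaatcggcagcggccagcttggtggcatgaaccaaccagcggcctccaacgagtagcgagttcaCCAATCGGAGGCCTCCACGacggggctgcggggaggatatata
Dnajc3 (chr15:102432517-102432666, plus strand): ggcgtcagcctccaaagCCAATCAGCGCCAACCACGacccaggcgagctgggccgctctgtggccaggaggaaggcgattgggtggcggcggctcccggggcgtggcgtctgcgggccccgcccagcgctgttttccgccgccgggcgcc

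All levels below are log2 of the deposited intensity, given in the order replicate 1, replicate 2. Differences are log2 differences between group means with their moderated standard error. The arrays differed in brightness, with median intensities of 156 and 165 in the dDAVP arrays and 175 to 182 in the others. The median gene differed by −0.11 between dDAVP and vehicle, by 0.14 between withdrawal and dDAVP, and by 0.03 between withdrawal and vehicle. Values after cyclic loess, which removes such shifts between arrays, are therefore given beside the counts and group medians and beside many single members. Vehicle replicate 1 and dDAVP replicate 2 stood apart from the other 4 arrays in many genes, so results are also given without them. Of the markers of the labelled tissue, Aqp2, the water channel of the collecting duct, lay between 13.14 and 13.40 in the 6 arrays. That is near the highest deposited intensity, 10778.7, so its narrow range is not read as steady tissue content. The summed intensity of 6 collecting duct markers, Aqp2 among them, ran from 19395 to 23577. That of 3 thick ascending limb markers ran from 2340 to 4624. Sums of 3 intercalated cell markers ran from 634 to 1877, and of 4 adipocyte markers from 1248 to 2675. Fewer cells of a type and less RNA per cell cannot be told apart in such bulk tissue.

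**Figure D1:**
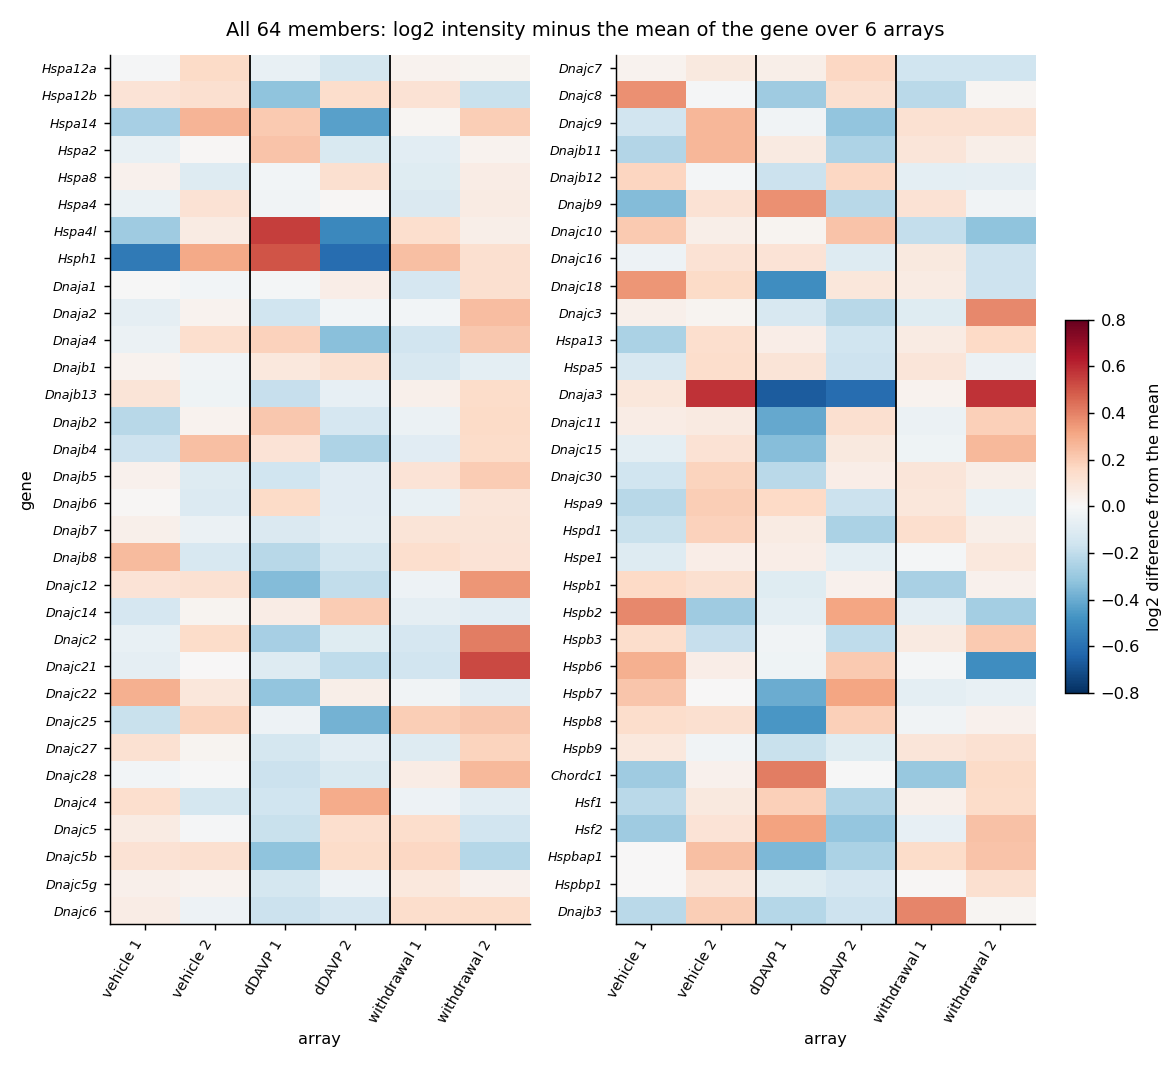
Log2 intensity of each of the 64 members minus its mean over the 6 arrays; columns are arrays, rows are genes in role order, black lines separate the groups, and the colour scale gives the log2 difference from the mean. Dnaja3 is low in both dDAVP arrays, while Hsph1 and Hspa4l are low in vehicle replicate 1 and dDAVP replicate 2.

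The first comparison, dDAVP against vehicle, asks which of these genes differ in tissue under lasting V2 receptor stimulation. Dnaja3, the J-protein of the mitochondrial Hsp70, was 1.96-fold lower with dDAVP, and Hspbap1, which encodes a protein that binds the small heat shock protein Hspb1, was 1.35-fold lower. Dnajc12, a co-chaperone of the aromatic amino acid hydroxylases, was 1.31-fold lower. The main chaperones of each compartment, Hspa8, Hspa5, Hspa9, Hspd1 and Hspe1, lay between −0.09 and 0.09. No member passed limma's adjusted p under 0.05, and neither did any other gene (0% of all genes; smallest adjusted p of a member 0.549). At an unadjusted p under 0.05, 3 members were lower (6.85% of all genes were) and 0 were higher (0.572% of all genes). After cyclic loess 3 members were lower and 1 higher, beside 1.52% and 1.77% of all genes. Without dDAVP replicate 2, 11 members were under that threshold (10 lower, 1 higher), beside 9.35% and 1.78% of all genes in the same fit. Of the 64 members 45 lay below 0, beside 77.9% of all genes, and 32 after cyclic loess, beside 52.4%. The median over the 64 members was −0.10, beside −0.11 over all genes, and it was −0.00 after cyclic loess.

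The second comparison, withdrawal against dDAVP, asks what differs 3 h after the infusion ends. It shares the dDAVP arrays with the first, so an opposite difference in both is not independent evidence. Dnaja3 was 1.92-fold higher after withdrawal, Hspbap1 1.41-fold higher and Dnajc12 1.35-fold higher. Dnajc10, an ER J-protein that reduces disulfide bonds, was 1.30-fold lower, and Dnajc7, a J-protein that binds both Hsp70 and Hsp90, was 1.20-fold lower. No member and no other gene passed limma's adjusted p (0% of all genes; smallest adjusted p of a member 0.260). At an unadjusted p under 0.05, 8 members were higher (17.3% of all genes) and 2 were lower (1.64% of all genes). After cyclic loess 3 were higher and 4 lower, beside 2.92% and 3.73% of all genes. With the dimmest 30% of genes dropped, 6 of 55 members were higher and 2 lower, beside 7.92% and 1.74% of the genes kept. Without withdrawal replicate 2, 3 members were at that threshold instead of 10, beside 5.46% of all genes instead of 19%. Of the 64 members 19 lay below 0, beside 25.1% of all genes, and 29 after cyclic loess, beside 48.7%. The median over the members was 0.12, beside 0.14 over all genes, and it was 0.02 after cyclic loess.

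The third comparison, withdrawal against vehicle, sets tissue 3 h after the infusion beside tissue that never received it. Dnajc10 was 1.31-fold lower, while Dnaja3, Hspbap1 and Dnajc12 differed by −0.03 ± 0.23, 0.07 ± 0.11 and 0.04 ± 0.15. No member and no other gene passed limma's adjusted p (0% of all genes; smallest adjusted p of a member 0.995). At an unadjusted p under 0.05, 1 member was lower (1.14% of all genes) and 0 were higher (0.642% of all genes). Without vehicle replicate 1 the count in either direction was 0 (1.41% of all genes in the same fit), without vehicle replicate 2 it was 3 (4.69%), and without withdrawal replicate 1 it was 4 (4.29%). After cyclic loess 2 were lower, Dnajc7 and Dnajc10, beside 1.5% of all genes, and 0 were higher, beside 0.649%. Of the 64 members 25 lay below 0, beside 40.5% of all genes, and 26 after cyclic loess, beside 49.8%. The median over the members was 0.04, beside 0.03 over all genes, and it was 0.02 after cyclic loess.

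**Figure D2:**
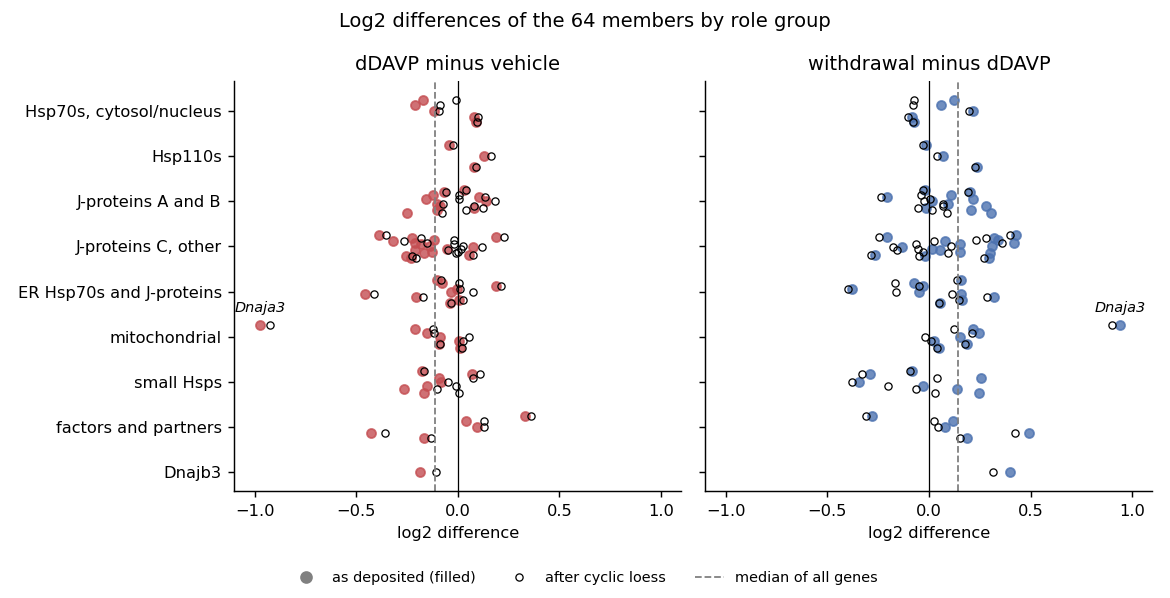
Log2 differences of the 64 members by role group, dDAVP minus vehicle on the left and withdrawal minus dDAVP on the right; filled points are the deposited values, open points are values after cyclic loess, and the dashed line is the median of all genes. Dnaja3 lies at −0.97 and 0.94, and most other members lie around the dashed line.

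Among the 7 mitochondrial members, Dnaja3 (Tid1, Entrez gene 360481) had levels of 9.36 and 9.85 in vehicle, 8.60 and 8.66 with dDAVP, and 9.30 and 9.85 after withdrawal. Both dDAVP arrays lay below the other 4 arrays, and the vehicle and withdrawal arrays overlapped. The means were 9.61 ± 0.35, 8.63 ± 0.04 and 9.58 ± 0.39 (SD, n = 2). The difference was −0.97 ± 0.23 for dDAVP against vehicle (95% interval −1.52 to −0.42, limma adjusted p = 0.549, 35th smallest p of 14168 genes). It was 0.94 ± 0.23 for withdrawal against dDAVP (0.39 to 1.49, limma adjusted p = 0.260). Dnaja3 was the member at least 1.5-fold apart in either comparison, beside 0.466% and 1.76% of all genes. Its unadjusted p stayed under 0.05 in all 16 alternatives of processing for both comparisons, with differences from −1.25 to −0.73 and from 0.66 to 1.22. After cyclic loess they were −0.93 and 0.90.

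The other 6 mitochondrial members did not share this size. Hspa9, the mitochondrial Hsp70 itself, had levels of 10.91 and 11.34 in vehicle, 11.30 and 10.97 with dDAVP, and 11.23 and 11.09 after withdrawal. The groups overlapped, and the difference for dDAVP against vehicle was 0.01 ± 0.18. Hspe1, the lid of the chaperonin, differed by 0.01 ± 0.11 (95% interval −0.25 to 0.27), and Hspd1, its barrel, by −0.09 ± 0.16. A second probe set of Hspd1, which was dimmer, gave 0.11, so the sign of that gene is uncertain. Dnajc15, a J-protein of the inner membrane import motor, differed by −0.15 ± 0.18, Dnajc11 by −0.21 ± 0.19 and Dnajc30 by −0.09 ± 0.15. After cyclic loess these were −0.12, −0.12 and 0.06. The J-protein Dnajc19 of the same import motor was not analysed here.

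**Figure D3:**
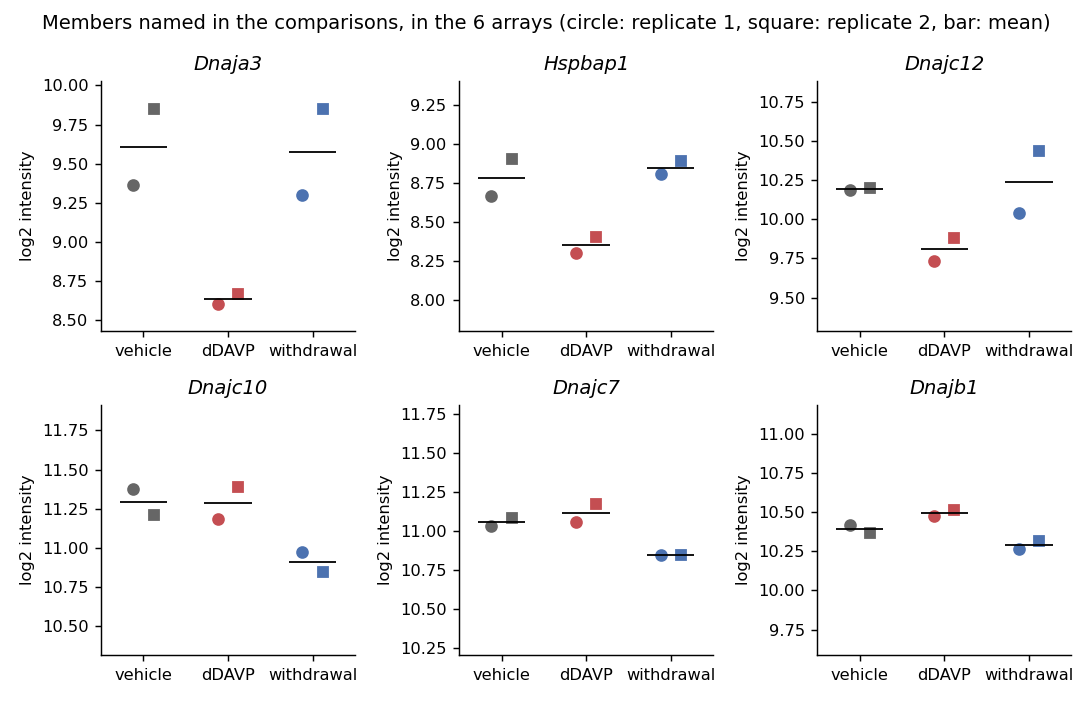
Log2 intensity of Dnaja3, Hspbap1, Dnajc12, Dnajc10, Dnajc7 and Dnajb1 in each array, by group; circles are replicate 1, squares are replicate 2 and bars are group means. The dDAVP arrays of Dnaja3, Hspbap1 and Dnajc12 lie below the other 4, and the withdrawal arrays of Dnajc10, Dnajc7 and Dnajb1 lie below the other 4.

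The heat shock factors and the partners of Hsp70, Hsp90 or small heat shock proteins made 5 members. Hspbap1 (Entrez gene 171460) had levels of 8.67 and 8.90 in vehicle, 8.30 and 8.41 with dDAVP, and 8.81 and 8.89 after withdrawal. Both dDAVP arrays lay below the other 4. It differed by −0.43 ± 0.11 for dDAVP against vehicle (95% interval −0.71 to −0.15, limma adjusted p = 0.549) and by 0.49 ± 0.11 for withdrawal against dDAVP (0.22 to 0.77, limma adjusted p = 0.260). After cyclic loess these were −0.36 and 0.42. With array medians subtracted the first was −0.28 and no longer under an unadjusted p of 0.05. Hspbp1, an exchange factor that releases ADP from Hsp70, had levels of 9.64 and 9.74, 9.54 and 9.50, and 9.65 and 9.77. Its dDAVP arrays were also the lowest, by less: −0.17 ± 0.10.

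Hsf1, the main activator of heat shock genes, had levels of 8.13 and 8.42, 8.53 and 8.10, and 8.38 and 8.49. Its difference for dDAVP against vehicle was 0.04 ± 0.17, and that of Hsf2, a related factor, was 0.09 ± 0.24. In both genes the spread within the vehicle and dDAVP groups was larger than the difference between them. Chordc1 had levels of 9.96 and 10.28, 10.65 and 10.24, and 9.94 and 10.40, with differences of 0.33 ± 0.21 and −0.28 ± 0.21. The dDAVP arrays overlapped the vehicle arrays on the deposited scale but lay above both of them after cyclic loess, where the difference was 0.36. The withdrawal and dDAVP arrays overlapped on both scales.

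On the list used here, class C J-proteins outside the ER and mitochondria made 16 members, a mixed group sharing the J domain, with locations not checked. Their median was −0.17 for dDAVP against vehicle and 0.15 for withdrawal against dDAVP, and after cyclic loess it was −0.02 and −0.00. Dnajc12 had levels of 10.19 and 10.20 in vehicle, 9.74 and 9.88 with dDAVP, and 10.04 and 10.43 after withdrawal. Both dDAVP arrays lay below the other 4. It differed by −0.39 ± 0.15 (limma adjusted p = 0.549) and 0.43 ± 0.15 (limma adjusted p = 0.260). The unadjusted p was under 0.05 in 10 and 9 of 16 alternatives, and the second difference was 0.23 without withdrawal replicate 2.

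Dnajc7 had levels of 11.03 and 11.08 in vehicle, 11.05 and 11.17 with dDAVP, and 10.85 and 10.84 after withdrawal. Both withdrawal arrays lay below the other 4. After withdrawal it differed from dDAVP by −0.27 ± 0.09 and from vehicle by −0.21 ± 0.09, and after cyclic loess by −0.28 and −0.21. Dnajc14, a J-protein known to bind dopamine receptors, had levels of 9.41 and 9.57, 9.60 and 9.75, and 9.48 and 9.46. Its dDAVP arrays were the highest of the 6, at 0.19 ± 0.11 and 0.23 after cyclic loess, where its unadjusted p fell under 0.05.

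Some members of this group depended on the scaling. Dnajc6 (auxilin, which strips clathrin from vesicles) differed by 0.30 ± 0.09 for withdrawal against dDAVP, and by 0.09 after cyclic loess. It was among the dimmest 30% of genes. Dnajc28 differed by 0.31 ± 0.10, and by 0.11 after cyclic loess. Dnajc25 moved less with cyclic loess, from 0.42 ± 0.16 to 0.36, where its unadjusted p was above 0.05. Its difference was 0.24 with array medians subtracted and 0.25 without dDAVP replicate 2. Its levels were 8.74 and 9.09, 8.87 and 8.54, and 9.11 and 9.13. The level of Dnajc21, a J-protein of ribosome assembly, was 8.69 in withdrawal replicate 2 and between 7.96 and 8.17 in the other 5 arrays. Its difference for withdrawal against dDAVP was 0.34 ± 0.21, and 0.00 without that array. Dnajc2, which works at the ribosome, was also highest there, at 9.70, and differed by 0.32 ± 0.19. Dnajc5, the J-protein of secretory vesicles, differed by −0.05 ± 0.15 for dDAVP against vehicle. The remaining members Dnajc4, Dnajc5b, Dnajc5g, Dnajc8, Dnajc9, Dnajc22 and Dnajc27 differed by between −0.32 and 0.07 for dDAVP against vehicle (−0.27 to 0.12 after cyclic loess), with no unadjusted p under 0.05.

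In the ER group of 9 members, the residents of the lumen gave different values from each other. Dnajc10 (ERdj5, Entrez gene 295690) had levels of 11.37 and 11.21 in vehicle, 11.18 and 11.39 with dDAVP, and 10.97 and 10.84 after withdrawal. Both withdrawal arrays lay below the other 4, and the vehicle and dDAVP arrays overlapped. It differed by −0.38 ± 0.12 for withdrawal against dDAVP (95% interval −0.67 to −0.09, limma adjusted p = 0.260) and by −0.38 ± 0.12 for withdrawal against vehicle (−0.67 to −0.10, limma adjusted p = 0.995). These 2 comparisons share the withdrawal arrays. The differences were −0.40 and −0.38 after cyclic loess. Without dDAVP replicate 2 the first was −0.28, without vehicle replicate 1 the second was −0.30, and without withdrawal replicate 2 they were −0.31 and −0.32, none with an unadjusted p under 0.05. The summed intensity of 3 endothelial markers was 1521 and 1309 in the withdrawal arrays, against 1536 to 1727 in the others. Singly, 2 of the 3 lay above 0 for withdrawal against dDAVP (median 0.03, lowest −0.31). Against vehicle all 3 lay below 0, from −0.34 to −0.01 with a median of −0.04. The markers did not move alike, and the part of the sum in the result was not tested.

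Hspa5 (BiP), the Hsp70 of the ER, had levels of 12.52 and 12.79 in vehicle, 12.75 and 12.48 with dDAVP, and 12.74 and 12.60 after withdrawal. The groups overlapped, and the difference was −0.04 ± 0.14 for dDAVP against vehicle (95% interval −0.39 to 0.31). Dnajc3, which inhibits the stress kinase PERK, had levels of 9.77 and 9.76, 9.61 and 9.52, and 9.64 and 10.12. Its dDAVP arrays lay below the other 4, with a difference of −0.21 ± 0.16. The difference for withdrawal against dDAVP was 0.32 ± 0.16, and 0.08 without withdrawal replicate 2. Hspa5 and Dnajc3 are the members whose promoters above hold the ER stress response element, and their differences were not tested against each other.

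Dnajb9 and Dnajb11, J-proteins of BiP, differed by 0.19 ± 0.23 and −0.10 ± 0.19 for dDAVP against vehicle. Dnajc18, a J-protein of the ER membrane, had levels of 9.62 and 9.42, 8.77 and 9.35, and 9.33 and 9.10. Both vehicle arrays lay above the other 4, and the difference of −0.46 ± 0.21 was −0.17 without dDAVP replicate 1. Hspa13, Dnajb12 and Dnajc16 differed by between −0.08 and 0.01. The 2 probe sets of Dnajb12 hold the same value in every array and count as 1 measurement.

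Among the 5 cytosolic and nuclear Hsp70s, Hspa8 (Hsc70), the constitutive form, had levels of 12.68 and 12.55 in vehicle, 12.63 and 12.78 with dDAVP, and 12.55 and 12.71 after withdrawal. The groups overlapped, and the differences were 0.09 ± 0.11 (95% interval −0.18 to 0.36) and −0.07 ± 0.11. Its 8 probe sets gave 0.02 to 0.14 for dDAVP against vehicle and −0.12 to 0.05 for withdrawal against dDAVP. The gene has near-identical copies in the genome, so these values are uncertain as to their source. Hspa2 differed by 0.08 ± 0.14 and −0.08 ± 0.14. Hspa12a and Hspa12b, distant relatives, differed by −0.17 ± 0.10 and −0.21 ± 0.18 for dDAVP against vehicle, and by −0.01 and −0.09 after cyclic loess. Hspa14, the Hsp70 of the ribosome, had levels of 10.48 and 11.02, 10.96 and 10.31, and 10.76 and 10.94.

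The 11 class A and B J-proteins of the cytosol and nucleus had a median of −0.09 for dDAVP against vehicle and 0.04 after cyclic loess. Dnajb1 (Hsp40), the stress-inducible partner of Hsp70, had levels of 10.42 and 10.37 in vehicle, 10.48 and 10.51 with dDAVP, and 10.26 and 10.31 after withdrawal. Both dDAVP arrays were the highest and both withdrawal arrays the lowest of the 6. The differences were 0.10 ± 0.09 and −0.21 ± 0.09, the second with an unadjusted p above 0.05, and −0.23 with one below it after cyclic loess. Dnaja1 and Dnaja2, general partners of Hspa8, differed by 0.03 ± 0.11 and −0.07 ± 0.12 for dDAVP against vehicle. Dnajb6, which keeps proteins from aggregating, differed by 0.08 ± 0.12, and Dnajb4 by −0.10 ± 0.19. Dnajb5 differed by 0.28 ± 0.10 for withdrawal against dDAVP, and by 0.07 after cyclic loess. Dnaja4, Dnajb2, Dnajb7, Dnajb8 and Dnajb13 differed by between −0.25 and 0.14 for dDAVP against vehicle, and by between −0.08 and 0.18 after cyclic loess. Dnajb3, placed in no role group, differed by −0.19 ± 0.18 for dDAVP against vehicle and 0.40 ± 0.18 for withdrawal against dDAVP, or −0.11 and 0.32 after cyclic loess.

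The 7 small heat shock proteins had medians of −0.15, −0.03 and −0.18 in the 3 comparisons, beside −0.11, 0.14 and 0.03 over all genes. After cyclic loess these medians were −0.01, −0.09 and −0.21. Hspb1 (Hsp27) had levels of 11.88 and 11.85 in vehicle, 11.62 and 11.75 with dDAVP, and 11.46 and 11.76 after withdrawal. Both vehicle arrays lay above the other 4, with differences of −0.18 ± 0.13 for dDAVP and −0.26 ± 0.13 for withdrawal against vehicle. Hspb6 (Hsp20), abundant in muscle, had levels of 10.03 and 9.80, 9.71 and 9.96, and 9.73 and 9.25. It differed by −0.43 ± 0.19 for withdrawal against vehicle (95% interval −0.88 to 0.03), and by −0.19 without withdrawal replicate 2. The summed intensity of 6 smooth muscle and pericyte markers was 4515 and 4830 in vehicle and 5715 and 5207 after withdrawal, and their part in the result was not tested. Hspb8, a partner of Bag3 in the removal of damaged proteins, had levels of 7.39 and 7.38, 6.79 and 7.45, and 7.22 and 7.29. It differed by −0.27 ± 0.21 for dDAVP against vehicle, by −0.10 after cyclic loess, and by 0.06 without dDAVP replicate 1. Hspb9 differed by 0.24 ± 0.09 for withdrawal against dDAVP, and by 0.03 after cyclic loess. Hspb2, Hspb3 and Hspb7 differed by between −0.15 and 0.07 for dDAVP against vehicle, and by between −0.01 and 0.11 after cyclic loess.

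**Figure D4:**
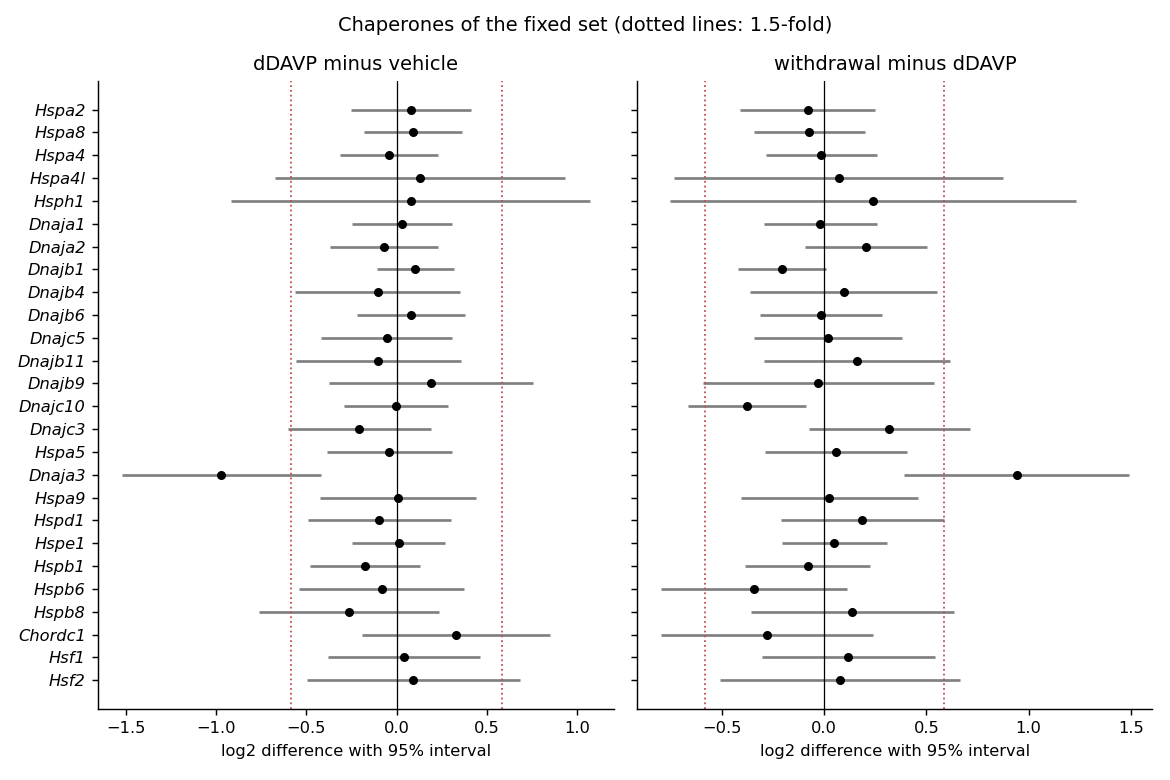
Log2 differences with 95% intervals for the 26 chaperones of the fixed set, dDAVP minus vehicle on the left and withdrawal minus dDAVP on the right; dotted lines mark 1.5-fold. The interval holds 0 for 25 of 26 on the left, all but Dnaja3, and for 24 of 26 on the right, all but Dnaja3 and Dnajc10. An interval without 0 is the same as an unadjusted p under 0.05, which 7.43% and 19% of all genes had.

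The intervals show how large a difference these data allow. In dDAVP against vehicle, the 95% interval lay within 1.5-fold both ways for 39 of the 64 members, and for 11367 of the 14168 genes. In withdrawal against dDAVP it did so for 37 members and 10529 genes, and in withdrawal against vehicle for 47 members and 11747 genes. The sign of the difference depended on the scaling (deposited, cyclic loess, array medians subtracted or quantile normalization) in 23, 23 and 6 of the 64 members in the 3 comparisons. Hspa5, Hspd1, Hspa4 and Hspa14 were among the 23 in dDAVP against vehicle, so no direction is read for them.

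The order of the arrays is a description without a fitted spread, with the share of all genes given beside each count. The members' shares lay near or below those of all genes, so no order is read as particular to them. Both dDAVP arrays lay below the other 4 in 13 of 64 members, beside 33.6% of all genes. After cyclic loess they did so in 5, Dnaja3, Dnajc3, Dnajc12, Hspbap1 and Hspbp1, beside 8.83% of all genes. Both dDAVP arrays lay above the other 4 in 2 members, Dnajb1 and Dnajc14, beside 3.14% of all genes, and in 2 after cyclic loess, beside 8.06%. Both withdrawal arrays lay below the other 4 in Dnajb1, Dnajc7 and Dnajc10 (3 of 64, beside 3.9% of all genes). After cyclic loess Dnajb12 joined them (4 of 64, beside 7.57%). Both withdrawal arrays lay above the other 4 in 6 members, beside 14.7% of all genes, and in 4 after cyclic loess (Dnajb5, Dnajc6, Dnajc25 and Hspb9), beside 7.54%. Both vehicle arrays lay above the other 4 in 3 members, Dnajc18, Dnajc22 and Hspb1, beside 4.71% of all genes, and below them in 0, beside 0.805%. After cyclic loess they lay above in 2, Dnajc18 and Hspb1, beside 4.25%, and below in 2, Dnajb5 and Dnajb7, beside 3.64%.

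Some members spread widely within groups. Hsph1 (Hsp105), an Hsp110 exchange factor, had levels of 11.11 and 11.98 in vehicle, 12.18 and 11.07 with dDAVP, and 11.92 and 11.80 after withdrawal. Vehicle replicate 1 and dDAVP replicate 2 lay below the other 4 arrays, so the vehicle and dDAVP groups each held a low and a high array. The range over the 6 arrays was 1.11 log2, beside a median range of 0.45 over the members. The difference for dDAVP against vehicle was 0.08 ± 0.41 (95% interval −0.92 to 1.07), and leaving out single arrays gave −0.48 to 0.63. Hspa4l, of the same family, had levels of 9.82 and 10.17, 10.66 and 9.59, and 10.24 and 10.15. Its range was 1.07, its difference 0.13 ± 0.33, and leaving out single arrays gave −0.41 to 0.66. Hspa4, the third Hsp110, had a difference of −0.04 ± 0.11.

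The same 2 arrays were the lowest in 16 of the 64 members, beside 12.7% of all genes, and in 19 after cyclic loess, beside 14.8%. The 16 included the ER genes Hspa5, Hspa13, Dnajb9 and Dnajb11, the mitochondrial genes Hspa9, Hspd1 and Hspe1, both heat shock factors, Hspa14, Dnajb2, Dnajb4, Dnajc9 and Dnajc25. The same 2 arrays were the highest in 8 members, beside 10.9% of all genes, among them Hspb2, Hspb6, Hspb7 and Hspb8, and in 10 after cyclic loess, beside 15.2%. In these 2 arrays the summed intensity of 5 leukocyte markers was 2122 and 2011, against 2451 to 2881 in the other 4. Smooth muscle and pericyte markers summed to 4515 and 4113, against 4830 to 5715, and 2 red cell markers to 759 and 666, against 434 to 545. Endothelial markers, 3 of them, summed to 1727 and 1687, against 1309 to 1605. In no other marker list did both arrays lie above, or both below, the other 4. The part of any of these cells in the result was not tested.

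**Figure D5:**
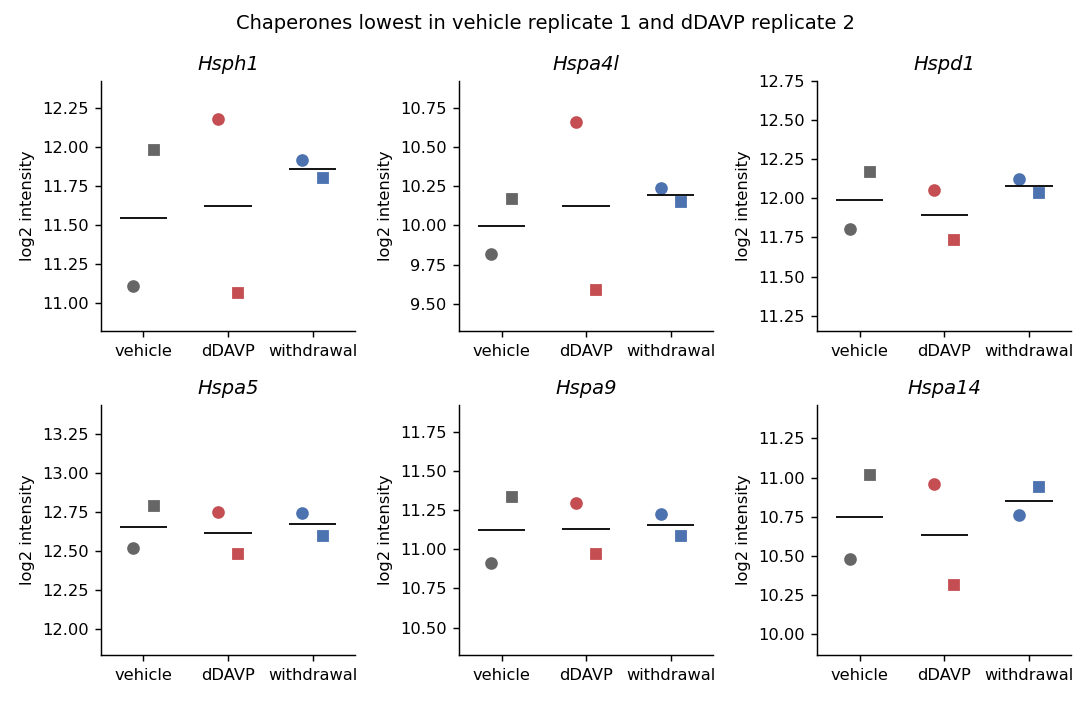
Log2 intensity of Hsph1, Hspa4l, Hspd1, Hspa5, Hspa9 and Hspa14 in each array, by group; circles are replicate 1, squares are replicate 2 and bars are group means. In each gene vehicle replicate 1 and dDAVP replicate 2 are the lowest of the 6 arrays. The genes were picked from the 16 members with this order, so its presence in each panel follows from the choice.

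Without those 2 arrays, 8 members had an unadjusted p under 0.05 in dDAVP against vehicle, and 7 of them were lower, beside 7.28% of all genes in that fit, 6.25% lower. Each of those groups then holds a single array, which is assumed to vary like the withdrawal group. Dnaja3 differed by −1.25 and 1.22 in the first 2 comparisons there, and Hspbap1 by −0.60 and 0.54. The count for withdrawal against vehicle was 0, beside 1.79% of all genes. When single arrays were left out in turn, Dnaja3 and Hspbap1 kept an unadjusted p under 0.05 each time in the first 2 comparisons, and every other member at that threshold lost it at least once.

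The 6 members with a heat shock element in the promoter had differences between −0.09 and 0.33 for dDAVP against vehicle, with a median of 0.05. For withdrawal against dDAVP they lay between −0.28 and 0.24, with 3 above 0 and 3 below. None of them had an unadjusted p under 0.05 in a comparison. Hspd1, Hspe1 and Hsph1 among them were lowest in vehicle replicate 1 and dDAVP replicate 2, and Hspa8, Dnaja1 and Chordc1 were not. The J-proteins Dnajc27 and Dnajc30, with a cAMP response element, differed by −0.18 ± 0.12 and −0.09 ± 0.15 for dDAVP against vehicle, and by −0.02 and 0.06 after cyclic loess, where the second changes sign.

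Outside the member rule, 70 genes were measured from lists of chaperones, co-chaperones and stress responses, not all of which encode chaperones. They held 16 genes of Hsp90 and its co-chaperones, 13 of Hsp70 partners, and 12 of the TRiC chaperonin and prefoldin. A further 18 belonged to the ER unfolded protein response and ER folding, and 11 to other heat shock factor targets and stress proteins. None of the 70 passed limma's adjusted p in a comparison. At an unadjusted p under 0.05, 2 of them were lower and 0 higher with dDAVP than with vehicle, 3 were higher and 2 lower after withdrawal than with dDAVP, and 1 was lower and 0 higher after withdrawal than with vehicle. The shares of all genes were 6.85% lower and 0.572% higher, 17.3% higher and 1.64% lower, and 1.14% lower and 0.642% higher. After cyclic loess the counts were 0 lower and 0 higher, 2 higher and 3 lower, and 1 lower and 0 higher. The shares of all genes were then 1.52% lower and 1.77% higher, 2.92% higher and 3.73% lower, and 1.5% lower and 0.649% higher. Hsp90aa1 and Hsp90ab1, the cytosolic Hsp90s, differed by −0.02 ± 0.11 and −0.08 ± 0.10 for dDAVP against vehicle. Hsp90b1, the Hsp90 of the ER, differed by −0.05 ± 0.14, and Cryab, a small heat shock protein outside the symbol series, by 0.03 ± 0.11.

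Trib3, a pseudokinase gene induced by ER stress signalling, had levels of 7.48 and 7.79 in vehicle, 7.29 and 7.31 with dDAVP, and 7.81 and 7.85 after withdrawal. Both dDAVP arrays lay below the other 4, with differences of −0.33 ± 0.12 and 0.53 ± 0.12, or −0.19 and 0.36 after cyclic loess. The first was −0.18 without vehicle replicate 2. Fkbp5, an Hsp90 co-chaperone induced by glucocorticoids, had levels of 8.42 and 9.05, 8.23 and 8.17, and 8.56 and 8.51. It differed by −0.54 ± 0.20 for dDAVP against vehicle, by −0.23 without vehicle replicate 2 and by −0.85 without vehicle replicate 1. Selenos, of ER-associated degradation, differed by 0.46 ± 0.14 for withdrawal against dDAVP, and by 0.30 without withdrawal replicate 2. Hsf4, a heat shock factor best known in the lens, differed by 0.26 ± 0.09 there, and by 0.06 after cyclic loess.

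Hscb, a mitochondrial J-protein of iron-sulfur cluster assembly, had levels of 10.03 and 10.05 in vehicle, 10.01 and 10.03 with dDAVP, and 9.81 and 9.76 after withdrawal. Both withdrawal arrays lay below the other 4, with differences of −0.23 ± 0.09 against dDAVP and −0.25 ± 0.09 against vehicle. Bag5, an exchange factor of Hsp70, differed by −0.24 ± 0.10 for withdrawal against dDAVP.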

How the data were processed

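Each of the 6 arrays gave 1 value per probe set. The authors deposited linear intensities, from 30.2 to 10778.7. RMA is the tool named, per the submitters' processing notes, and no version or genome build is given in the sources used here. RMA usually brings arrays to a common distribution, but the median intensities of the deposited arrays differ, from 156 to 182, so which normalization was applied is not known here. The log2 of each value was taken, with no filter on dim genes. In the dimmest 30% of genes lay 9 of the 64 members, among them Dnajb7, Dnajb8, Dnajb13, Dnajc5b, Dnajc5g, Dnajc6 and Dnajc27. Of 28524 probe sets, 14947 carried 1 symbol in the array annotation, 318 several and 13259 were not listed there. Each gene was represented by its brightest probe set on average, and the 64 members came from 73 probe sets. Entrez numbers of 14916 probe sets matched RefSeq GRCr8, and 0 symbols changed.

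The comparisons used limma 3.58.1 (R 4.3.3), with a single fit of 3 group means to the 6 arrays (3 residual and 3.21 prior degrees of freedom), with two-sided tests and Benjamini-Hochberg adjustment over 14168 genes in each of 3 comparisons. The test was run on simulated data with independent noise. That simulation held no brightness shift and no opposed deviations between arrays, so it does not vouch for the test here. The members and all gene lists were chosen with earlier results of these data known. The rule for named genes took members at an unadjusted p under 0.05 (up to 8 in each direction), a fixed set of 26 measured chaperones, the 6 members with the widest range, and pathway genes at an unadjusted p under 0.05. Members named otherwise complete their role group or were chosen after their values were seen. Replicate numbers did not pair the arrays: deviations from the group mean correlated at −0.62 between vehicle and dDAVP, −0.11 between dDAVP and withdrawal and −0.00 between vehicle and withdrawal. Alternatives covered scaling, filtering, probe sets, an offset, variance models, a replicate block and left-out arrays. Scan dates and detection calls were not used here, so batches were not looked for.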

Additional observations from a re-analysis of the deposited data

How the results depend on the processing

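In dDAVP against vehicle, the 3 members at an unadjusted p under 0.05 became 5 with array medians subtracted (4 higher, 1 lower), 8 without vehicle replicate 1 and dDAVP replicate 2 together, and 2 to 11 without single arrays (11 without dDAVP replicate 2). The shares of all genes moved as well: with array medians subtracted, 4.08% were higher and 0.671% lower, against 0.572% and 6.85% as deposited. Leaving arrays out left a group with a single array, so those counts are not read as particular to the members. The members' median of −0.10 became −0.0022 after cyclic loess, −0.00148 after quantile normalization and 0.050 with medians subtracted, and ran from −0.13 to −0.07 without single arrays. In withdrawal against dDAVP, the 10 members, beside 19% of all genes, became 6 with the replicate block, beside 10.7%. The median of 0.12 became 0.019, 0.00189 and −0.056 under cyclic loess, quantile normalization and median subtraction, and ran from 0.10 to 0.16 without single arrays. In withdrawal against vehicle, the 1 member became 2 under cyclic loess, quantile normalization and log2(value + 50), and 3 with medians subtracted. Beside these stood 2.15%, 2.28%, 1.99% and 2.71% of all genes. The median of 0.04 became −0.033 without vehicle replicate 1 and dDAVP replicate 2 together. It ran from −0.033 to 0.088 without single arrays. Members with both dDAVP arrays lowest fell from 13 to 5, 3 and 5 under cyclic loess, median subtraction and quantile normalization. Those with both highest rose from 2 to 6 under median subtraction. Of all genes, the share with both lowest fell from 33.6% to 8.83% under cyclic loess. The share with both highest rose from 3.14% to 8.06%. Shares under the other scalings were not counted, so these shifts are not read as particular to the members. The replicate block changed no other count of calls by over 1.5 times. Crossed pairings, chosen after seeing the data, gave 9 members at an unadjusted p under 0.05 in dDAVP against vehicle (21.2% of all genes), with Dnaja3 among the 43 of 14168 genes past limma's adjusted threshold, and 9 members (16% of all genes) with 0 genes past it in withdrawal against dDAVP. The cause was not tested.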
